A study of Mus musculus with 6 samples.

Results

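The 10 genes described here encode regulators of the BCL2 family: *Bcl2*, *Bcl2l1*, *Mcl1*, *Bax*, *Bak1*, *Bcl2l11*, *Bid*, *Bad*, *Bbc3* and *Bmf*. They were taken by gene name from a deposited table of 55426 genes, each name matched 1 row, and all 10 reached a mean of 0.5 TPM (a transcript level corrected for transcript length and library size). RNA came from the abdominal aorta of male C57BL/6J mice, with 3 libraries from Prdm16SMKO mice and 3 from control mice. Prdm16SMKO mice carried Prdm16flox/flox and Myh11-CreERT2, a Cre recombinase that tamoxifen activates in cells with an active *Myh11* promoter, foremost vascular smooth muscle cells (VSMCs). The controls carried Myh11-CreERT2 with wild-type *Prdm16* alleles, according to the study. The protocol gave tamoxifen at 75 mg/kg/day for 5 days by gavage to mice aged 8 to 10 weeks, and animals entered experiments 2 weeks later. The sequenced aortas had received no pathological stimulus according to the study, and the time of their collection is not given in the sources used here. The Cre cassette lies on the Y chromosome, so all mice were male, and cells of the wall without *Myh11* keep their *Prdm16*.

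BCL2 family proteins decide whether the outer membrane of mitochondria stays closed. BCL2, BCL-XL (made from *Bcl2l1*) and MCL1 keep it closed. BAX and BAK (made from *Bak1*) form the pores that release cytochrome c and lead to caspase activation. BH3-only proteins carry the signal for death: BIM (*Bcl2l11*), BID, BAD, PUMA (*Bbc3*) and BMF bind the protective members through a short helix, the BH3 domain, and some also activate BAX and BAK directly. VSMC apoptosis is a known feature of abdominal aortic aneurysm, and much of this control acts on the proteins, which RNA does not show.

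The coding sequence of the BH3 core is printed for each gene, because it is the stretch that the family shares and through which its members bind each other. The coding sequence of 1 transcript per gene of GENCODE M21 (GRCm38) was searched for a leucine codon followed, 4 codons later, by a glycine, alanine or serine codon and then an aspartate codon. Each gene held 1 match. The runs have 12 codons, 5′ to 3′ on the coding strand, with the leucine codon and the pair of codons at the core in capitals.
Bcl2 (chr1:106712575-106712610, minus strand, exon 1): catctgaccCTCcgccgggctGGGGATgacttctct
Bcl2l1 (chr2:152829697-152829732, minus strand, exon 2): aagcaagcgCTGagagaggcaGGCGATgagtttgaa
Mcl1 (chr3:95659427-95659462, plus strand, exon 1): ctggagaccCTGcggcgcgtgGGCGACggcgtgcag
Bax (chr7:45465997-45466032, minus strand, exon 3): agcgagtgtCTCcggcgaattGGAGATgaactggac
Bak1 (chr17:27022531-27022566, minus strand, exon 4): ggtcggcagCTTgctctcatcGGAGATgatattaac
Bcl2l11 (chr2:128147141-128147176, plus strand, exon 3): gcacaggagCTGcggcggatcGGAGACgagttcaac
Bid (chr6:120897289-120897324, minus strand, exon 4): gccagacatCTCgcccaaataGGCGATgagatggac
Bad (chr19:6950783-6950818, plus strand, exon 3): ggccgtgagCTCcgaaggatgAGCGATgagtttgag
Bbc3 (chr7:16313764-16313799, plus strand, exon 3): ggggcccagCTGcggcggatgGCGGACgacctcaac
Bmf (chr2:118545100-118545135, minus strand, exon 4): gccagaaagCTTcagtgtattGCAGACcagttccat
The core held a glycine codon in all 3 protective members, in both pore formers and in *Bcl2l11* and *Bid*. It held a serine codon in *Bad* and an alanine codon in *Bbc3* and *Bmf*. Against *Bcl2l11*, *Bbc3* was identical at 25 of 36 bases, and the other 8 genes at 18 to 22.

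Poly(A) selection preceded paired-end sequencing of 151 bp for all 6 libraries. TPM keeps no record of reads, so the depth of single libraries, their counting error and their limits of detection are unknown. Between 20332 and 22100 genes were above 0 TPM. The share of a library in 45S ribosomal RNA was 15.6% to 31.4% and that in mitochondrial transcripts 15.8% to 27.4%, over overlapping ranges in both groups. *Prdm16*, the targeted gene, was at 30.8 to 36.8 TPM in control and 14.8 to 27.7 TPM in Prdm16SMKO mice, without overlap (log2 fold change −0.70, limma adjusted p = 0.376). VSMC markers (*Myh11*, *Acta2* and 6 more) summed to 14917 to 25276 TPM in control and 11513 to 17648 TPM in Prdm16SMKO mice. The ranges overlapped, 6 of the 8 genes were lower, and no marker stayed below 0.5 TPM throughout. None of the 8 reached a limma adjusted p under 0.05, and 3 had an unadjusted p under 0.05, against 0.355% and 8.74% of all genes tested. In a whole aorta, fewer cells of a type and less RNA per cell cannot be told apart.

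Levels of the 10 genes spanned from 1.17 TPM for *Bid* to 134 TPM for *Mcl1* (means of 6 libraries). *Mcl1* alone made up 46.0% of the summed TPM of the family members, *Bax* 15.7%, *Bcl2l1* 11.2% and *Bad* 10.5%. *Mcl1*, *Bax* and *Bcl2l1* kept this order in 6 of 6 libraries. *Bcl2l1* and *Bad* did not differ beyond their spread, as *Bcl2l1* was the higher of the pair in 3 of 6 libraries. *Bak1* followed, then *Bcl2*, which was below *Bak1* in 6 of 6 libraries although their ranges overlapped. The BH3-only genes other than *Bad* came last. *Bbc3* was above *Bmf* in 4 of 6 libraries and *Bcl2l11* above *Bid* in 5 of 6, with overlapping ranges in each pair. The mean of *Bbc3* was below that of *Bmf* in control (4.53 and 5.73 TPM) and above it in Prdm16SMKO mice (9.62 and 4.03 TPM).

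**Figure D1:**
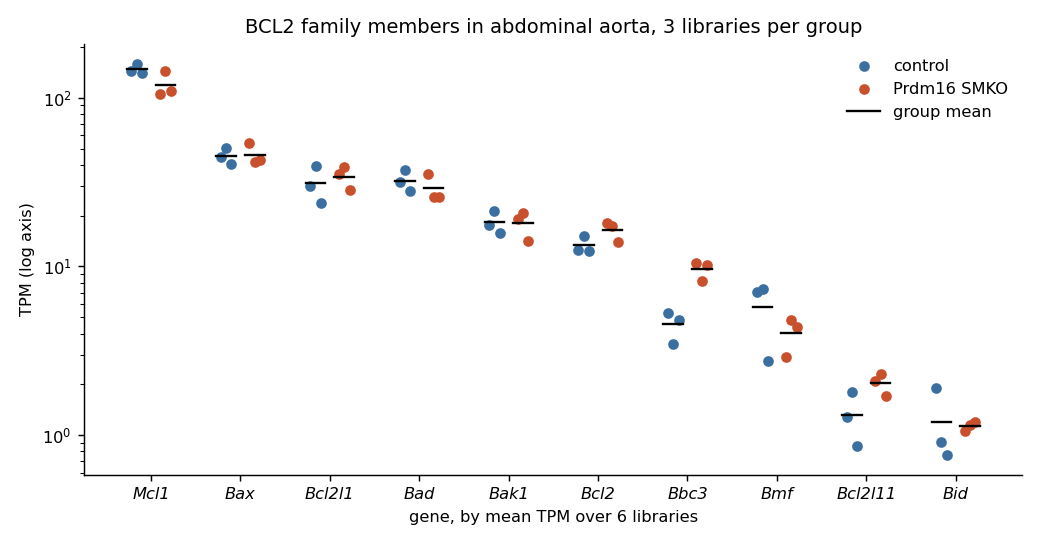
TPM (log axis) of the 10 BCL2 family genes, ordered by their mean over 6 libraries, with 1 point per library (control blue, Prdm16SMKO orange) and a black bar at the mean of each group of 3. *Bbc3* is the gene whose groups stand apart, at 3.48 to 5.33 TPM in control and 8.19 to 10.5 TPM in Prdm16SMKO mice.

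Whether VSMC deletion of *Prdm16* changed this set was asked by fitting limma to log2(TPM + 0.5) of 15775 genes, those whose mean reached 0.5 TPM. None of the 10 genes was called (limma, Benjamini-Hochberg adjusted p under 0.05 over all genes tested), where 0.355% of all genes tested were. At an unadjusted p under 0.05 there was 1, *Bbc3*, which was higher in Prdm16SMKO mice, and over all genes tested 4.88% were higher and 3.85% lower at this level. The groups did not overlap in *Bbc3* alone, and over all genes tested 7.02% were higher and 5.76% lower without overlap. Of the 10, 6 had a log2 fold change above 0 and 4 below, with a median of 0.01 against 0.02 over all genes tested. With 3 libraries per group the exact permutation test cannot give a two-sided p below 0.1.

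**Figure D2:**
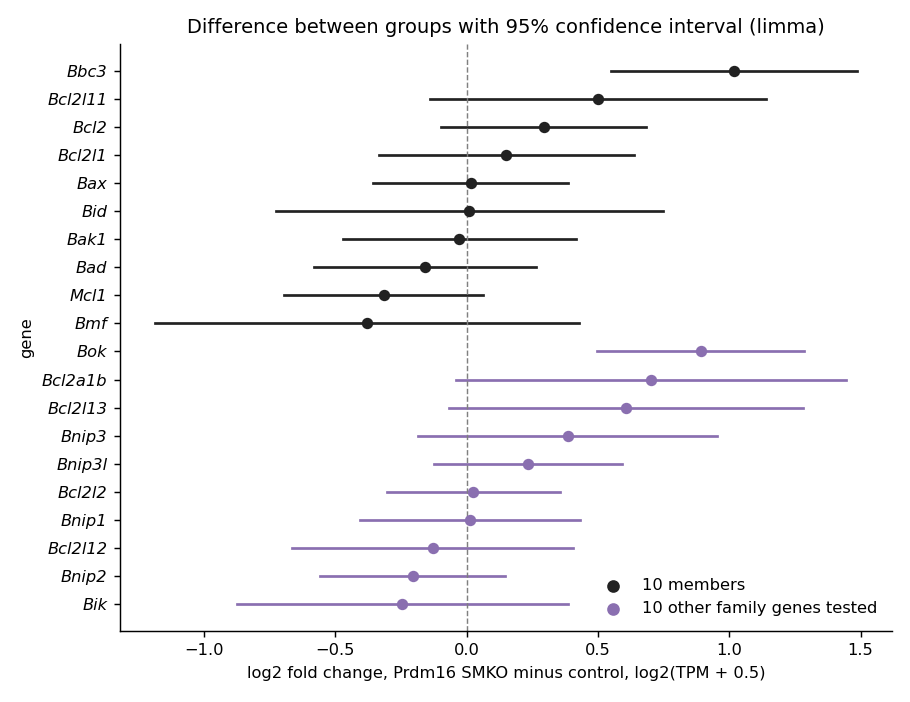
Log2 fold change, Prdm16SMKO minus control on log2(TPM + 0.5), as points with 95% confidence intervals from limma for the 10 genes (black). In purple are 10 further BCL2 family and BCL2-interacting (*Bnip*) genes. The intervals of *Bbc3* and *Bok* lie above 0, and those of the other 18 genes include 0.

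*Bbc3* (ENSMUSG00000002083; chromosome 7 of GRCm38, 16308393 to 16318205, plus strand) encodes PUMA, a BH3-only protein that p53 induces and that binds all the protective members. By replicate number, the control libraries held 5.33, 3.48 and 4.79 TPM and the Prdm16SMKO libraries 10.5, 8.19 and 10.1 TPM. Each Prdm16SMKO library was above each control library. Control mice averaged 4.53 ± 0.951 TPM (SD, n = 3), and Prdm16SMKO mice averaged 9.62 ± 1.26 TPM (SD, n = 3). The log2 fold change was 1.02 (standard error 0.21, 95% confidence interval 0.55 to 1.49), with a limma unadjusted p of 9.0e-04 and a Benjamini-Hochberg adjusted p of 0.10. The exact permutation test gave its smallest two-sided p, 0.1. By p-value, *Bbc3* ranked 141 among 15775 genes. The study named *Bbc3* from these same libraries, so its direction here is not independent evidence. With limma's array weights, which give control replicate 1 a weight of 10.1 and the other libraries 0.414 to 0.954, it was called (adjusted p = 0.0400), and over the other alternatives the adjusted p ran up to 0.283.

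Sums of other gene groups were compared in the same libraries. The sum of 11 immediate-early genes was 613 to 857 TPM in control and 253 to 407 TPM in Prdm16SMKO mice, without overlap, with 10 of the 11 at a log2 fold change below 0 and 4 called. No macrophage, erythroid, T cell, adipocyte or nerve marker was called, where 0.355% of all genes tested were. At an unadjusted p under 0.05 (limma) were 5 of 5 erythroid and 4 of 6 macrophage markers, all higher in Prdm16SMKO mice. So were 1 of 5 adipocyte and 1 of 2 tested T cell markers, also higher, and 0 of 5 nerve markers. The counts were 3 of 8 for VSMC, 1 of 6 for endothelial and 1 of 6 for fibroblast markers. They were 0 of 2 for tested B cell and 0 of 2 for tested brown adipocyte markers. Over all genes tested the share was 8.74%. The 6 macrophage markers all had log2 fold changes above 0, and their sums overlapped, at 60.0 to 92.2 TPM in control and 90.1 to 169 TPM in Prdm16SMKO mice. The same held for the 5 erythroid genes (1143 to 3167 and 2191 to 19568 TPM), the 5 adipocyte genes (477 to 951 and 461 to 2346 TPM) and the 5 neuron and Schwann cell genes (6.01 to 71.3 and 5.3 to 265 TPM). T cell markers summed to 0.550 to 2.58 and 2.73 to 4.81 TPM, without overlap, with *Cd3d* below 0.5 TPM in every library. Of 6 skeletal and cardiac muscle genes, *Tnnt2* alone was called, at 5.76 to 11.9 TPM in control and 304 to 346 TPM in Prdm16SMKO mice. Among the others, *Myh6* was at 0.920 to 2.09 and 0.210 to 0.710 TPM, *Myh7* stayed below 0.5 TPM, and *Ckm*, *Acta1* and *Tnni3* overlapped between the groups. The part of these groups in the *Bbc3* difference was not tested.

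Among the protective genes, *Mcl1* (ENSMUSG00000038612; chromosome 3, 95658788 to 95663176, plus strand) encodes a short-lived protein that restrains BAK and BIM. *Mcl1* was at 143, 159 and 141 TPM in control and at 105, 145 and 110 TPM in Prdm16SMKO replicates 1 to 3. Replicates 1 and 3 of the Prdm16SMKO group were below every control, and replicate 2 lay within the control range. The log2 fold change was −0.32 (95% confidence interval −0.69 to 0.06, limma adjusted p = 0.691). *Bcl2* (ENSMUSG00000057329; chromosome 1, 106538178 to 106714274, minus strand) encodes the founding member of the family. *Bcl2* was at 12.5, 15.2 and 12.4 TPM in control and at 18.2, 17.3 and 14.1 TPM in Prdm16SMKO replicates 1 to 3. The groups overlapped in 1 pair of libraries, control replicate 2 and Prdm16SMKO replicate 3. Its log2 fold change was 0.29 (95% confidence interval −0.10 to 0.68, limma adjusted p = 0.746). *Bcl2l1* (ENSMUSG00000007659; chromosome 2, 152780668 to 152831728, minus strand) encodes BCL-XL and, by splicing, a short form that promotes death, which a value per gene cannot separate. *Bcl2l1* was at 29.8, 39.5 and 23.8 TPM in control and at 35.3, 38.7 and 28.3 TPM in Prdm16SMKO mice, with overlapping groups. Its log2 fold change was 0.15 (95% confidence interval −0.33 to 0.64, limma adjusted p = 0.940).

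The pore formers had fold changes near 0, with overlapping groups. *Bax* (ENSMUSG00000003873; chromosome 7, 45461697 to 45466898, minus strand) was at 44.8, 50.6 and 40.7 TPM in control and at 53.6, 41.4 and 42.8 TPM in Prdm16SMKO mice. The means were 45.4 ± 4.96 and 46.0 ± 6.69 TPM (SD, n = 3 each). The ratio of the groups on the fitted scale had a 95% confidence interval from 0.780 to 1.31. *Bak1* (ENSMUSG00000057789; chromosome 17, 27019810 to 27029009, minus strand) was at 17.6, 21.4 and 15.9 TPM in control and at 19.1, 20.7 and 14.2 TPM in Prdm16SMKO mice, a ratio with a 95% confidence interval from 0.721 to 1.34. *Bax* was highest in Prdm16SMKO replicate 1 and control replicate 2, the libraries with the smallest share of 45S transcripts, 15.7% and 15.6%. With TPM rescaled without 45S and mitochondrial transcripts the log2 fold change of *Bax* was 0.03, against 0.01 as deposited.

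Of the other BH3-only genes, *Bad* was abundant and the rest were low. *Bad* (ENSMUSG00000024959; chromosome 19, 6941861 to 6951899, plus strand) encodes a protein that growth factor signalling keeps phosphorylated and bound to 14-3-3 proteins. *Bad* was at 31.5, 37.1 and 28.1 TPM in control and at 35.5, 25.8 and 25.7 TPM in Prdm16SMKO mice. Replicates 2 and 3 of the Prdm16SMKO group were below every control and replicate 1 was not (log2 fold change −0.16, 95% confidence interval −0.58 to 0.26, limma adjusted p = 0.922). *Bcl2l11* (ENSMUSG00000027381; chromosome 2, 128126038 to 128162547, plus strand), a FOXO target that encodes BIM, was at 1.28, 1.81 and 0.860 TPM in control and at 2.08, 2.29 and 1.70 TPM in Prdm16SMKO mice. The groups overlapped in 1 pair of libraries, control replicate 2 and Prdm16SMKO replicate 3 (log2 fold change 0.50, 95% confidence interval −0.14 to 1.14, limma adjusted p = 0.722). *Bmf* (ENSMUSG00000040093; chromosome 2, 118528757 to 118549687, minus strand), whose protein is tied to the cytoskeleton and released on loss of attachment, was at 7.07, 7.38 and 2.75 TPM in control and at 2.92, 4.78 and 4.38 TPM in Prdm16SMKO mice. Control replicate 3 was the lowest of the 6 libraries and the other two controls were the highest (log2 fold change −0.38, 95% confidence interval −1.19 to 0.43, limma adjusted p = 0.887). The log2 fold change was −0.80 without control replicate 3, −0.16 without control replicate 2, and −0.19 without either replicate 1. *Bid* (ENSMUSG00000004446; chromosome 6, 120891930 to 120916853, minus strand), which caspase-8 cleaves, was at 1.91, 0.910 and 0.760 TPM in control and at 1.06, 1.15 and 1.2 TPM in Prdm16SMKO mice, so that the controls enclosed the Prdm16SMKO values. The spans of *Bcl2*, *Bax*, *Bak1*, *Bid* and *Bad* overlap other annotated genes, and whether counting used the strand is not given in the sources used here. No annotated gene overlaps *Bbc3*, *Mcl1*, *Bcl2l1*, *Bcl2l11* or *Bmf*.

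Ratios of TPM within a library do not depend on how the library was scaled, and are given as descriptions with no test. *Bax* to *Bcl2* was 3.59, 3.32 and 3.29 in control and 2.95, 2.40 and 3.05 in Prdm16SMKO replicates 1 to 3, lower in each Prdm16SMKO library than in each control. *Bcl2l11* to *Mcl1* was 0.00894, 0.0114 and 0.00611 in control and 0.0199, 0.0158 and 0.0155 in Prdm16SMKO mice, higher in each Prdm16SMKO library. *Bax*, *Bcl2*, *Bcl2l11* and *Mcl1* each overlapped between the groups, and *Bcl2l11* was low, at 0.860 to 2.29 TPM. With 3 libraries per group, 7.02% of single genes tested were higher and 5.76% lower without overlap. The share among ratios of gene pairs was not computed, so how common such separation is among ratios is unknown. *Bax* to *Bak1* was 2.55, 2.36 and 2.57 in control and 2.80, 2.0 and 3.02 in Prdm16SMKO mice, with overlapping groups. The summed TPM of the 3 protective genes was 177 to 214 in control and 152 to 201 in Prdm16SMKO mice, that of the 2 pore formers 56.5 to 71.9 and 57.0 to 72.8, and that of the 5 BH3-only genes 37.3 to 50.7 and 42.2 to 52.1. These sums overlapped. *Bbc3* made up 6.87% to 12.9% of the BH3-only sum in control and 19.4% to 23.5% in Prdm16SMKO mice, while *Bad* made up 66.9% to 75.4% and 59.6% to 68.2%.

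**Figure D3:**
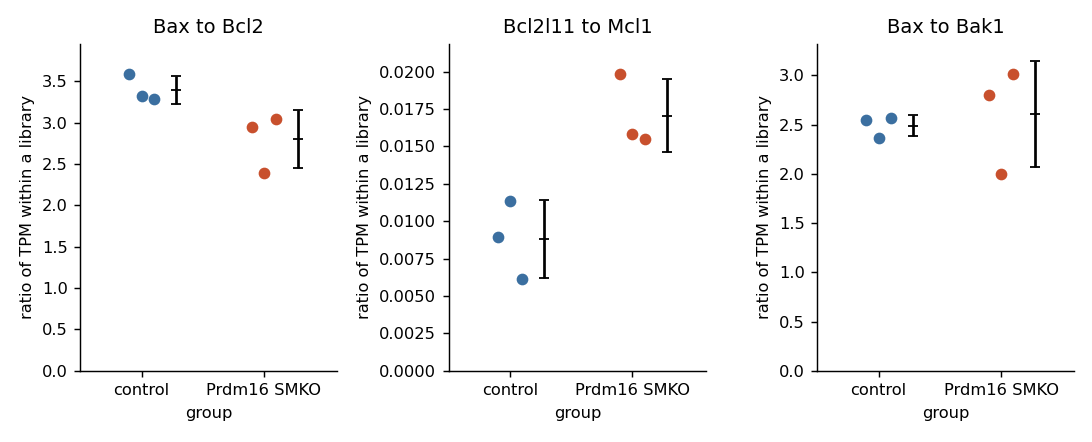
Ratio of TPM within each library for *Bax* to *Bcl2*, *Bcl2l11* to *Mcl1* and *Bax* to *Bak1*, with 1 point per library by group and the mean with SD (n = 3) in black beside them. The groups are apart in the first pair of panels, and in the *Bax* to *Bak1* panel the Prdm16SMKO values (2.0 to 3.02) enclose the control values.

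A list of 18 further genes was looked up in the same fit. It held BCL2 family genes and, counted with them here, genes named for interaction with BCL2 (*Bnip1*, *Bnip2*, *Bnip3*, *Bnip3l* and *Bnipl*). Of the 18 genes, 10 passed the expression minimum. None was called, and 1 of the 10, *Bok*, had an unadjusted p under 0.05 (limma), against 0.355% and 8.74% of all genes tested. *Bok* (ENSMUSG00000026278; chromosome 1, 93685660 to 93695764, plus strand) encodes a relative of BAX and BAK that can form pores without them. *Bok* was at 4.39, 4.84 and 4.36 TPM in control and at 8.01, 10.1 and 8.45 TPM in Prdm16SMKO replicates 1 to 3. Each Prdm16SMKO library was above each control library. Mean levels were 4.53 ± 0.269 and 8.86 ± 1.11 TPM (SD, n = 3 each). The fitted log2 fold change was 0.89 (standard error 0.17, 95% confidence interval 0.50 to 1.29, limma adjusted p = 0.0920). Median-of-ratios size factors (adjusted p = 0.0444), rescaling without 45S and mitochondrial transcripts (0.0470) and array weights (0.0103) took *Bok* past the threshold, and over the other alternatives its adjusted p ran from 0.0664 to 0.344. The study listed *Bok* and *Bnip3l* as upregulated from these libraries as well, which is not independent evidence of their direction. Neither was called in the fit used here (limma adjusted p = 0.0920 and 0.815), which called 56 genes in all. The study listed far more genes at an adjusted p under 0.05, so absence from the calls here does not contradict its list. The BH3 core of *Bok* spans a junction of exons 2 and 3 (chr1:93686648-93689170, plus strand, with an intron in between), and its glycine codon and aspartate codon are those of the pore formers.
Bok: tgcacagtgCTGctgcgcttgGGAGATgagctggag

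Of the remaining genes of this list, *Bcl2l2*, which encodes the protective BCL-W, was at 38.6 to 45.9 TPM in control and 39.1 to 44.3 TPM in Prdm16SMKO mice, above *Bcl2l1* in 6 of 6 libraries. The 95% confidence interval of its ratio was 0.810 to 1.28. *Bnip2* was the most abundant gene of the list, at 146 to 193 and 135 to 151 TPM, and its groups overlapped. The mitophagy receptors *Bnip3* (22.2 to 31.0 and 28.4 to 52.1 TPM) and *Bnip3l* (47.6 to 64.7 and 62.9 to 69.1 TPM) had log2 fold changes of 0.38 and 0.23. *Bcl2l13* (0.61), *Bik* (−0.24), *Bcl2l12* (−0.13) and *Bnip1* (0.01) also had overlapping groups. *Bcl2a1b*, of a protective subfamily that blood cells express, was at 0.330 to 0.560 TPM in control and 0.830 to 1.48 TPM in Prdm16SMKO mice, without overlap (log2 fold change 0.70, limma adjusted p = 0.620). Its near-identical copies *Bcl2a1d* (0 to 0.110 and 0.310 to 0.770 TPM) and *Bcl2a1a* (0 and 0 to 1.37 TPM) were below the expression minimum, and reads can be placed on any of the 3. The T cell sums given beside *Bbc3* did not overlap between the groups, the macrophage and erythroid sums did, and their part was not tested. *Pmaip1*, which encodes the p53 target NOXA, was at 0.130 to 0.550 TPM, below the minimum, as were *Hrk*, *Bcl2l10*, *Bcl2l14*, *Bcl2l15* and *Bnipl*.

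**Figure D4:**
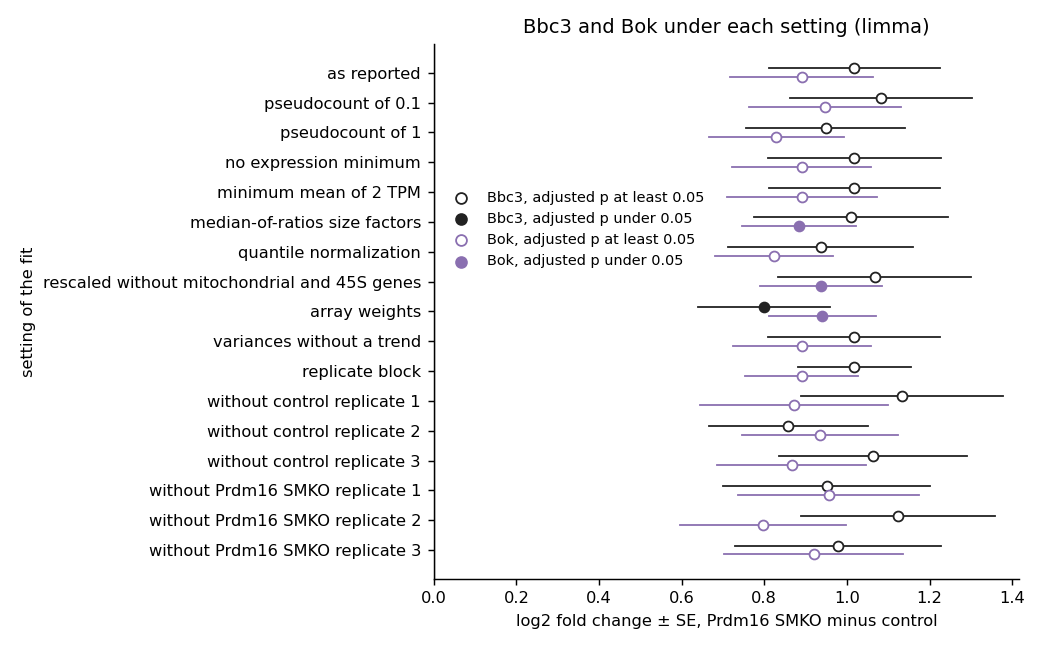
Log2 fold change of *Bbc3* (black) and *Bok* (purple) with its standard error, Prdm16SMKO minus control, in the reported fit and 16 alternatives. Each value is above 0, from 0.80 to 1.13 for *Bbc3* and 0.80 to 0.96 for *Bok*, and points are filled where the adjusted p was under 0.05, in 1 and 3 alternatives.

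The sequence before the start of *Bbc3* and *Bok* is printed because they were the 2 tested family genes with an unadjusted p under 0.05. Each run is the 250 bases before a RefSeq start (GRCm38.p6), 5′ to 3′ on the plus strand, with matches to the GC box GGGCGG on either strand in capitals. *Bbc3* has 3 RefSeq windows, and the one nearest the start of transcript Bbc3-201 was printed. That window lies inside the annotated span of the gene, which begins further upstream.
Bbc3 (chr7:16309333-16309582): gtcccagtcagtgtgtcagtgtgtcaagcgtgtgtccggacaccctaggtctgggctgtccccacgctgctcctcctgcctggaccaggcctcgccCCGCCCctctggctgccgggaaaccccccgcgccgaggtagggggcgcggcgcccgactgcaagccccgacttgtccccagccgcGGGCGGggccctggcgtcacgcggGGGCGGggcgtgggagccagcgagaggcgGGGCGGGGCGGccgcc
Bok (chr1:93685325-93685574): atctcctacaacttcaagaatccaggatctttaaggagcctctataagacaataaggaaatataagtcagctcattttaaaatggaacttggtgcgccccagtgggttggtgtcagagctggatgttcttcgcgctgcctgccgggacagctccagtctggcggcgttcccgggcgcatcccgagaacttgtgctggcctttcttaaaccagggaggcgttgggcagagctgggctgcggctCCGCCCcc
The printed *Bbc3* window held 5 GC boxes, of which the last pair overlap by a base, and 76.4% G and C. The 3 *Bbc3* windows, this one included, held 5, 1 and 7 GC boxes. The *Bok* window held 1 and 55.2%. Over 32851 RefSeq windows of this length, 32.7% held a GC box and the median was 52.4% G and C. Among the other genes, the *Bcl2* window held 7 GC boxes, that of *Bid* 3, of *Bax* 2 and of *Mcl1* 1. The windows of *Bcl2l11* held 3 and 2, those of *Bad* 3 and 0, and those of *Bcl2l1*, *Bak1* and *Bmf* none. The FOXO element GTAAACA, searched on both strands, was in 1 of 3 windows of *Bbc3*, not the one printed, in 1 of 2 of *Bcl2l11* and in none of *Bok*, against 3.17% of all windows. A gene with several windows has more room for a match than this share per window. The E-box CACGTG was also in 1 of 3 *Bbc3* windows (6.02% of all windows), as was CCAAT (33.9%). Neither was in that of *Bok*, and TATAAA and TGANTCA were in no window of either gene. The p53 element was searched as a pair of half-sites RRRCWWGYYY without mismatch, adjacent or with a short spacer between them (R is A or G, W is A or T, Y is C or T). It was in none of the windows of *Bbc3* or *Bok*, and in 0.0639% of all windows. Such a search misses any site that departs from the pattern by a base, so it does not show that p53 sites are absent. A match to these letters is a description and not a binding site, and no data on binding were used here.

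A list of 14 genes around p53, FOXO and stress signalling was looked up, holding regulators of BH3-only genes and other p53 targets, and 13 were tested. None was called, and *Phlda3* had an unadjusted p under 0.05 (limma), against 0.355% and 8.74% of all genes tested. *Phlda3*, a p53 target that restrains AKT, was at 42.6 to 54.8 TPM in control and 63.8 to 80.7 TPM in Prdm16SMKO mice, without overlap (log2 fold change 0.53, limma adjusted p = 0.357). The study listed *Phlda3* as upregulated from these libraries too, and the fit used here, which called far fewer genes than the study, did not call it. *Ddit3*, which encodes the stress factor CHOP, had a log2 fold change of 0.31 and *Zmat3* 0.27, with overlapping groups. The median of the list was 0.05, against 0.02 over all genes tested. *Ccng1*, named after its values were seen, did not overlap either, at 37.1 to 39.0 and 41.1 to 44.3 TPM (log2 fold change 0.16, limma adjusted p = 0.862). These were the 2 of 13 tested genes without overlap, and over all genes tested 7.02% were higher and 5.76% lower without overlap.

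Downstream of the pores, 14 apoptosome and IAP (inhibitor of apoptosis) genes were all tested. None was called and none had an unadjusted p under 0.05 (limma), with 7 above 0, 7 below and a median log2 fold change of −0.02. Over all genes tested 0.355% were called, 8.74% had an unadjusted p under 0.05, and the median was 0.02. With shares this small, lists of this size can hold no called gene without differing from other genes. *Aifm1* (−0.21), *Htra2* (−0.15) and *Casp6* (0.13) had the smallest p-values. Of 12 genes for outer membrane partners of BCL2 proteins, none was called or had an unadjusted p under 0.05, and the median was 0.10. *Mfn2* (−0.33), *Tomm20* (0.23) and *Mfn1* (0.58), the first and last of them mitofusins that join mitochondria, had the smallest p-values. The study listed *Mfn2* as downregulated from these same libraries, so its direction is not independent evidence. *Mfn1* was at 0.10 without control replicate 3, 0.27 without Prdm16SMKO replicate 1 and 0.057 with array weights, and *Mfn2* at −0.15 without control replicate 2. Of 21 genes whose proteins bind, sequester or degrade BCL2 proteins, none was called or had an unadjusted p under 0.05, and the median was 0.06. *Ywhag*, a 14-3-3 gene (0.45), *Pim1* (0.57) and *Dynll2*, whose dynein light chain holds BMF (0.21), had the smallest p-values. *Pim1* was at 14.7 TPM in Prdm16SMKO replicate 3 and at 6.06 to 6.2 TPM in the other Prdm16SMKO libraries, and its log2 fold change was 0.17 without that library, 0.34 without control replicate 3 and 0.029 with array weights. That of *Ywhag* was 0.28 without Prdm16SMKO replicate 1.

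The genes whose levels followed a member most closely over the 6 libraries were looked for among the 9669 genes whose mean reached 5 TPM. For *Mcl1*, the most abundant protective gene, they were *Fmo2* and *Cd248* (Pearson's r = 0.993 and 0.989). For *Bax* they were *Gnas* and *Gas8* (0.992 and 0.991), and for *Bad*, the most abundant BH3-only gene, *Tarbp2* and *Rex1bd* (0.996 and 0.994). These coefficients are descriptions over 6 points that share their scaling, picked as the highest of many.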

How the data were processed

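RNA-seq of 6 abdominal aortas was analysed, 3 from Prdm16SMKO and 3 from control mice, grouped by the titles of the sample labels. The authors deposited 1 table of TPM values, which divide by transcript length and bring every library to 1 total. According to the submitters' processing notes, cutadapt 2.3, STAR 2.7.8a and RSEM 1.3.3 were used with GRCm38. The annotation release and strand setting are not given in the sources used here. No 2 libraries were identical.

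Values were transformed to log2(TPM + 0.5), and the 15775 genes whose mean over the libraries reached 0.5 TPM were tested. The groups were compared with limma 3.58.1 in R 4.3.3 (trended variances, equal weights, two-sided, Benjamini-Hochberg adjustment over all genes tested), with 95% confidence intervals from its moderated standard errors. Fold changes on this scale understate changes of low genes. Exact permutation tests, sequence searches and figures used Python 3.11.15, scipy 1.17.1, pandas 2.3.3 and matplotlib 3.10.9. Positions and coding sequences are those of GENCODE M21, promoters those of RefSeq, which had windows for all 10 genes.

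The genes, lists, alternatives and the rule for naming genes were chosen with earlier results of these data known. Named were all family genes, the 3 genes per other list with the smallest p, *Prdm16*, and the 2 genes most like the most abundant gene of each class. *Ccng1* was named outside this rule. Nothing states that libraries came from separate litters or days, so p-values measure the spread between these mice.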

Additional observations from a re-analysis of the deposited data

How the results depend on the processing

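Over 16 alternatives, the 158 values of the 10 genes kept their direction and their side of the threshold in 145, changed sign in 12 and crossed the threshold in 1, *Bbc3* with array weights. Of the 10 genes, sign changed for *Bak1* with array weights (0.047), *Bid* with a pseudocount of 1 (−0.0019), quantile normalization (−0.10) and array weights (−0.49), and, with 1 library left out, *Bcl2l1* (−0.021 to 0.34), *Bax* (−0.10 to 0.10), *Bak1* (−0.13 to 0.13) and *Bid* (−0.17 to 0.30). Among the other genes named, *Bnip1* changed sign with quantile normalization (−0.032) and array weights (−0.0069), and with 1 library left out so did *Bnip1* (−0.10 to 0.11), *Bcl2l2* (−0.021 to 0.10), *Bik* (−0.50 to 0.053), *Bcl2l12* (−0.37 to 0.026), *Htra2* (−0.33 to 0.028) and *Casp6* (−0.0060 to 0.21). The number of the 10 genes called was 0 as reported and 1 with array weights. Of the other family genes 1, *Bok*, was called with size factors, with rescaling and with array weights. At an unadjusted p under 0.05 (limma), 1 of the 10 was found as reported (8.74% of all genes), 4 with size factors (*Bbc3*, *Bcl2*, *Bcl2l11* and *Mcl1*; 13.6%), 4 with array weights (*Bbc3*, *Bcl2*, *Bcl2l11* and *Bmf*; 20.1%), 2 with rescaling (*Bbc3* and *Bcl2*; 12.7%) and 2 with the replicate block (*Bbc3* and *Mcl1*; 9.84%), and the cause was not tested. With 1 library left out there were 1 or 2, where 6.36% to 9.09% of all genes were at this level. The second was *Bmf* without control replicate 3 (8.68% of all genes) and *Mcl1* without Prdm16SMKO replicate 2 (7.33%). Over all genes, 56 were called as reported, 10 with no expression minimum, 153 with size factors, 129 with quantile normalization, 145 with rescaling, 494 with array weights, 33 without a variance trend, and 5 to 61 with 1 library left out. Higher in Prdm16SMKO mice were 29 of the 56, 61 of the 153 and 46 of the 129. The replicate numbers did not pair the libraries (r of −0.131 to 0.0188 between same-numbered libraries, and 0 of 3 controls correlated best with their own number). A block for the replicate number left 4 genes called, and *Bbc3* at an adjusted p of 0.172. *Bid* and *Bcl2l11* were not tested at a minimum mean of 2 TPM. TPM keeps no depth, so the precision of the low genes *Bid*, *Bcl2l11* and *Bcl2a1b* is known only from the spread of 3 libraries.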
